A study of Mus musculus with 1376 samples.

Results

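The genes described here are 10 extracellular metalloproteinases and their inhibitors, taken by symbol from the 46517 genes of the deposited table. They are the 4 tissue inhibitors of metalloproteinases (Timp1, Timp2, Timp3, Timp4), the 2 matrix metalloproteinases Mmp2 and Mmp14, and the 4 ADAMTS proteases Adamts1, Adamts2, Adamts5 and Adamts17. All 10 were in the table, and all 10 passed the filter on low counts. Their levels were followed across smooth muscle subtypes, pericytes and fibroblasts of the mouse lung.

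Matrix metalloproteinases (MMPs) are zinc enzymes that cut collagens and other matrix proteins, and ADAMTS proteases are secreted relatives that cut proteoglycans or trim procollagens. Tissue inhibitors of metalloproteinases (TIMPs) bind the active site of these enzymes and so limit the breakdown of matrix. In vessel and airway walls, the balance of both groups is known to bear on how the matrix around smooth muscle is laid down and replaced.

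The study sequenced single cells sorted into wells of plates and amplified by Smart-Seq2, a full-length cDNA method without molecular identifiers. The cells came from 3 mice of the reporter strain ACTA2GFP:CSPG4dsRED, whose name gives a green reporter for smooth muscle actin (Acta2) and a red one for the proteoglycan NG2 (Cspg4). Of 1376 cells in all, 47.46% came from male mouse 1 (plates 045s and 046s), 25.58% from male mouse 2 and 26.96% from female mouse 1. Ages were labelled as 8 to 30 weeks, while the series text has 8 to 21 weeks and names male mice only. No mouse was treated, and every cell carries the same reporters, so the comparisons are between cell classes of the same animals. No source used here gives the sort gate of each mouse, and with 1 female mouse on its own plate, sex, plate and mouse cannot be told apart.

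Cells were clustered on genes that held none of the 10 described here, and clusters took names ending in -like from marker genes. The fibroblast classes were alveolar myofibroblast-like (99 cells), alveolar fibroblast-like (12.86% of all cells) and adventitial fibroblast-like (60 cells). The mural and muscle classes were pericyte-like (89 cells), airway smooth muscle-like (83, called airway SMC-like) and vascular smooth muscle-like (37.94% of all cells, called vascular SMC-like). A cell had 50835 to 1074103 counts (median 230688). The extract protocol speaks of heart although the tissue label says lung. Of all cells, 0.581% had a count of the cardiac myosin Myh6 and 35.5% had a count of the lung surfactant gene Sftpc. The 6 contractile genes used as markers summed to between 14072 and 23060 CPM (a gene's counts over all counts of the sum, on one scale for all sums) in the airway and vascular SMC-like classes of each mouse, and to between 287.8 and 804.6 CPM in alveolar and adventitial fibroblast-like cells. Endothelial markers summed to at most 138.8 CPM and leukocyte markers to at most 92.03 CPM in any mouse of these 6 classes. The 4 mesothelial markers summed to 1073 CPM in the adventitial fibroblast-like cells of 1 mouse and to at most 3.39 CPM in the sums of the other 5 classes, and their part in the results was not tested.

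Counts were summed per class and mouse, which gave 18 sums with the mouse as the replicate. Levels are CPM of these sums scaled by TMM factors, listed with the first male mouse first, the second male mouse next and the female mouse last, with mean ± SD over the 3 mice. Adjusted p-values come from edgeR's quasi-likelihood test with Benjamini-Hochberg adjustment over all 16079 genes tested, and a gene is called at an adjusted p under 0.05. In each sum, fewer cells that use a gene and less RNA of it per cell cannot be told apart.

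Levels differed among the 6 classes in 8 of the 10 genes, while 11.4% of all genes tested were called. The adjusted p was 1.3e-06 for Adamts2, 0.000152 for Mmp2, 0.000196 for Adamts1, 0.000864 for Timp1, 0.00166 for Timp4, 0.00283 for Mmp14, 0.0284 for Timp2 and 0.033 for Adamts5. Timp3 (adjusted p = 0.0538) and Adamts17 (adjusted p = 0.162) were not called. Timp4, Mmp2, Adamts1 and Adamts2 held in each of the 12 alternatives that were run. The call of Timp1 was lost without male mouse 2 (adjusted p = 0.0658), and that of Mmp14 without male mouse 1 (0.185) or male mouse 2 (0.0584). The call of Timp2 was lost without any single mouse (0.186, 0.0797 and 0.215), and that of Adamts5 without male mouse 1 (0.336) or male mouse 2 (0.42). Calls were also lost in alternatives that kept every mouse. Of the 10, 7 were called without the mouse as a block, 6 at Leiden resolution 2 and 7 with a stricter cell filter. The fits at resolution 2 and with the stricter filter held 5 of the 6 classes.

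**Figure D1:**
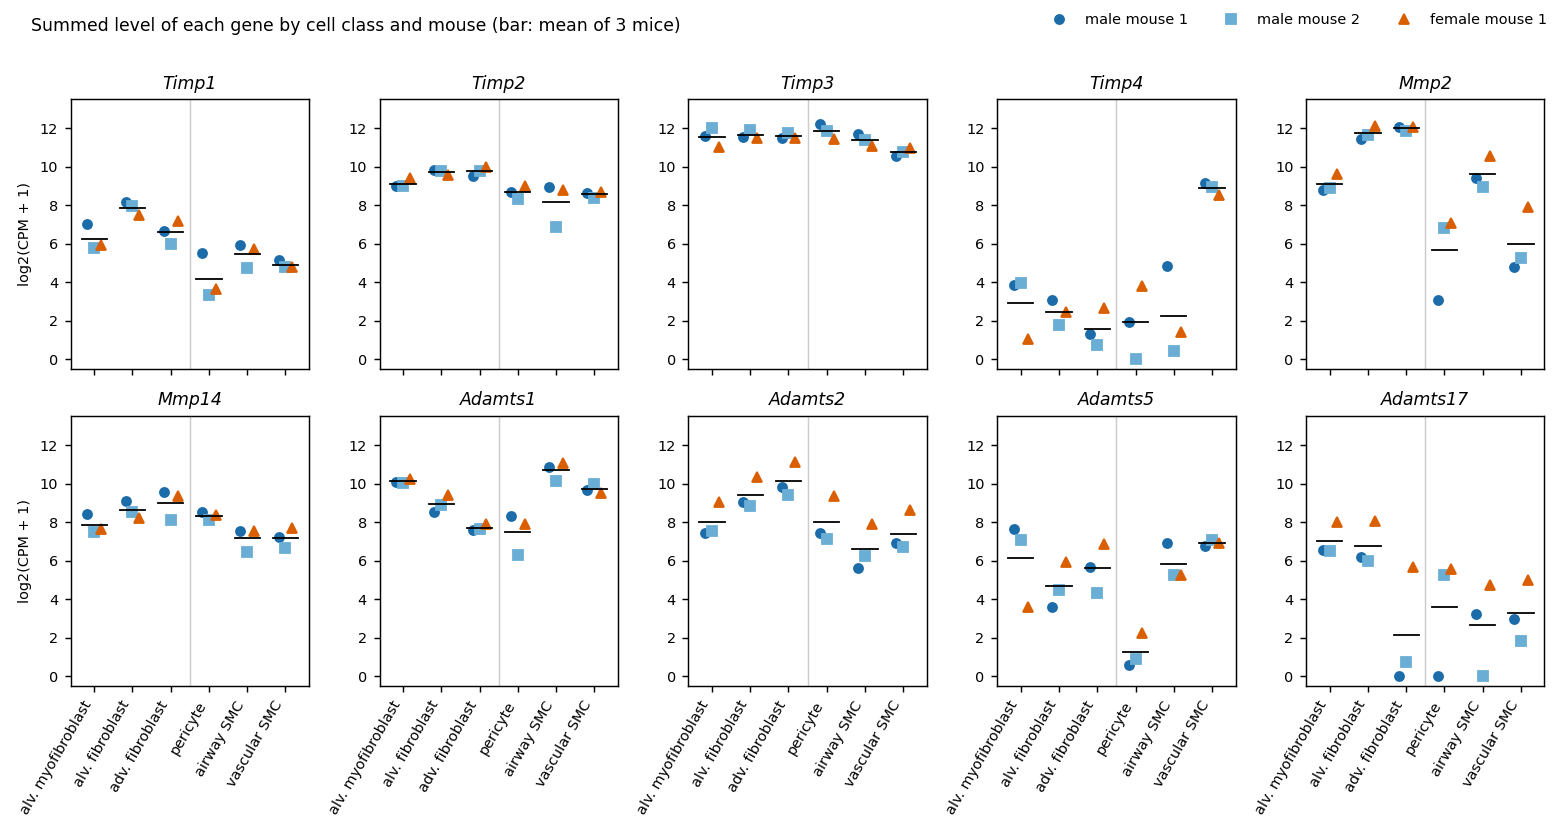
Level of each of the 10 genes as log2(CPM + 1) of the summed counts (vertical axis) in the 6 cell classes (horizontal axis), 1 point per mouse, with a bar at the mean of 3 mice. Timp4 stands at 28.3 CPM or below in 5 classes and at 366.3 CPM or above in vascular SMC-like cells, while Timp3 is at 1523 CPM or above in all 18 sums.

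In the comparison of fibroblast with mural and muscle classes, 5 of the 10 genes were higher in fibroblasts (Timp1, Timp2, Mmp2, Mmp14 and Adamts2) and 0 were lower. Among all genes tested, 8.43% were called, 5.06% as higher and 3.36% as lower. Each side of this contrast is the mean of 3 classes. Of the genes not called, Timp4 had a log2 fold change ± 2 SE from −3.96 to −0.87, and Adamts5 from 0.18 to 2.44. RefSeq's table of promoters on GRCm38.p6, which runs from 250 bases before to 50 bases after each start, held 8 of the 10 genes (not Mmp2 or Adamts5). The windows of the 4 matched genes that were higher in fibroblasts are printed first, and that of Timp4, which was highest in vascular SMC-like cells, follows them. Capitals mark matches on either strand to a GC box (GGGCGG) or an MCAT element (CATTCC).
Timp1 (chrX:20869916-20870215, plus strand): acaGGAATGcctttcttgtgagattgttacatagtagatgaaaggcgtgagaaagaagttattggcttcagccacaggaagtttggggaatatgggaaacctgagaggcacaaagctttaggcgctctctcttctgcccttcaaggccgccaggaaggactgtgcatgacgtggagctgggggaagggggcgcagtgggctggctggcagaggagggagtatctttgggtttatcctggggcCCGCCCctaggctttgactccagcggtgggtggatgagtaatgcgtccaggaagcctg
Timp2 (chr11:118355362-118355661, minus strand): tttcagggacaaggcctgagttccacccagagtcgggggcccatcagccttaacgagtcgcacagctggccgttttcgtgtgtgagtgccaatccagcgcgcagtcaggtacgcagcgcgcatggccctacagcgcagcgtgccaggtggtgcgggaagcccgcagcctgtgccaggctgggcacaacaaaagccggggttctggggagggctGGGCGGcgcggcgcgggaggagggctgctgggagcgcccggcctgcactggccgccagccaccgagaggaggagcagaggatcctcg
Mmp14 (chr14:54431348-54431647, plus strand): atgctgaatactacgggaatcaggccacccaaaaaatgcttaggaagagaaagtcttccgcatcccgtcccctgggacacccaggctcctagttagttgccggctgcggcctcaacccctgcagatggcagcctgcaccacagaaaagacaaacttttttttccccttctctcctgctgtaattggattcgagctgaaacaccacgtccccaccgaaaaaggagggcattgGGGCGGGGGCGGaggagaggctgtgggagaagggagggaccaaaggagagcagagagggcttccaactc
Adamts2 (chr11:50601835-50602134, plus strand): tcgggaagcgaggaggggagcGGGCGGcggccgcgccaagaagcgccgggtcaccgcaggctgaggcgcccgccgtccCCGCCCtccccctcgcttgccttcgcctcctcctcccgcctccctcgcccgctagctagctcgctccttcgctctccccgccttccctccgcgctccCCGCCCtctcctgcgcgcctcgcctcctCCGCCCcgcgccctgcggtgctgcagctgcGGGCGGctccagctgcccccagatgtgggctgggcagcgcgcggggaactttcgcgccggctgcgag
Timp4 (chr6:115252156-115252455, minus strand): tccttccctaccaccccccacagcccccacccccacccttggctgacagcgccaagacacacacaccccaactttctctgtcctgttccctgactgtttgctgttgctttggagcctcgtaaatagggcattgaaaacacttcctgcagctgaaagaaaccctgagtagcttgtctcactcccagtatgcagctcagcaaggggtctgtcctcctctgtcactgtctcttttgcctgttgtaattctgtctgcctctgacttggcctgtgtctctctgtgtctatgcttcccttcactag
The GC box occurred 1 time in the Timp1 window, 1 time in Timp2, 2 times in Mmp14 and 5 times in Adamts2, and 35.7% of all 32851 promoters in the table held it. The Timp4 window held no match to any of the 5 motifs searched. These were the GC box, the MCAT element (in 14.7% of all promoters), the letters TATAAA (13.6%), the AP-1 site TGANTCA (7.81%) and the CArG box that serum response factor binds (1.63%). No window of the 8 genes held a CArG box or an AP-1 match. Adamts1, not printed, had the letters TATAAA 32 to 27 bases before its start and 3 GC boxes. Timp3 and Adamts17, also not printed, had 2 and 0 GC boxes. Adamts1, Timp3 and Adamts17 were not called in the fibroblast contrast, and a relation of the GC box to class was not tested.

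Timp1 (ENSMUSG00000001131, chromosome X, 20870166 to 20874735, plus strand, GRCm38) encodes a soluble inhibitor that many cells secrete on cytokine stimulation. It had 130.5, 54.2 and 60.5 CPM in alveolar myofibroblast-like cells, 285.1, 247.9 and 177.8 CPM in alveolar fibroblast-like cells and 100.5, 62.3 and 142.6 CPM in adventitial fibroblast-like cells. It had 44.97, 9.07 and 11.8 CPM in pericyte-like cells, 59.6, 25.8 and 51.6 CPM in airway SMC-like cells and 34.8, 26.7 and 27.2 CPM in vascular SMC-like cells. All 3 alveolar fibroblast-like sums stood above all 15 others, and every fibroblast sum stood above the pericyte-like and vascular SMC-like sums. The fibroblast classes were higher by 2.09 ± 0.29 on the log2 scale (SE), a 4.25-fold difference (adjusted p = 0.000223), and the call held in all 12 alternatives. Alveolar myofibroblast-like cells were not called lower than alveolar fibroblast-like cells (log2 fold change −1.67 ± 0.49 (SE), adjusted p = 0.113). In pericyte-like cells a single cell held 75.3%, 95.2% and 63.8% of the Timp1 counts of the 3 mice, so the low level there rests on few cells.

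Timp2 (ENSMUSG00000017466, chromosome 11, 118301069 to 118355740, minus strand) encodes the inhibitor that also bridges Mmp14 and the Mmp2 proenzyme at the cell surface. It was found broadly, with a count in 92.4% of all cells. It had 513.1, 511.3 and 676 CPM in alveolar myofibroblast-like cells, 913, 896 and 764 CPM in alveolar fibroblast-like cells and 745, 869 and 1034 CPM in adventitial fibroblast-like cells. It had 414.2, 320.6 and 520.5 CPM in pericyte-like cells, 490.6, 114.7 and 446.4 CPM in airway SMC-like cells and 399.5, 331.8 and 419.02 CPM in vascular SMC-like cells. The alveolar and adventitial fibroblast-like sums lay above every mural and muscle sum, and the alveolar myofibroblast-like sums overlapped those of pericyte-like cells. The fibroblast classes were higher by 1.02 ± 0.20 on the log2 scale (SE), a 2.03-fold difference (adjusted p = 0.0045). Without female mouse 1 the log2 difference was 1.15 and the call was lost (adjusted p = 0.0578). Within mural and muscle cells no difference was called, with log2 fold changes of 0.11 ± 0.35 (SE) for pericyte-like over vascular SMC-like cells and −0.21 ± 0.35 (SE) for airway over vascular SMC-like cells.

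Timp3 (ENSMUSG00000020044, chromosome 10, 86300372 to 86349506, plus strand) encodes the inhibitor that binds to matrix itself and that also acts on ADAM and ADAMTS proteases. It had a count in 99.7% of all cells and was the TIMP with the highest level per exonic length in all 6 classes. Its sums were 3129, 4133 and 2069 CPM in alveolar myofibroblast-like cells, 3035, 3886 and 2864 CPM in alveolar fibroblast-like cells and 2879.6, 3517 and 2944 CPM in adventitial fibroblast-like cells. They were 4849.5, 3765 and 2772 CPM in pericyte-like cells, 3328, 2719 and 2163 CPM in airway SMC-like cells and 1523, 1749 and 1989 CPM in vascular SMC-like cells. Vascular SMC-like cells had the lowest sums, and none of the 15 sums of other classes fell below theirs. The fibroblast contrast was not called for Timp3 (log2 fold change 0.25 ± 0.13 (SE), adjusted p = 0.289), and the pericyte-like sums overlapped those of all 3 fibroblast classes. Pericyte-like cells were higher than vascular SMC-like cells by 1.07 ± 0.22 on the log2 scale (SE), a 2.11-fold difference (adjusted p = 0.0161). That call was lost without male mouse 1 (log2 0.72, adjusted p = 0.436) and without male mouse 2 (1.05, 0.189). Alveolar and adventitial fibroblast-like cells were also called higher than vascular SMC-like cells, by 0.86 ± 0.22 (SE, adjusted p = 0.0328) and 0.81 ± 0.22 (SE, adjusted p = 0.0492) on the log2 scale. Of all genes tested, 5.37% and 4.98% were called between these classes. Both calls were lost without male mouse 1 (adjusted p = 0.257 and 0.269) and without male mouse 2 (0.333 and 0.291).

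Timp3 lies within the gene Syn3, a synaptic vesicle gene on the opposite strand, and exons of both overlap. The table held 851528 counts for Timp3 and 275575 for Syn3. No source used here says how the authors treated strand, so reads of both genes cannot be told apart where exons overlap. Syn3 averaged 1062 ± 462.95 CPM in pericyte-like cells and 541.1 ± 101.6 CPM in vascular SMC-like cells (SD, n = 3 mice), a log2 fold change of 0.89 ± 0.26 (SE) with an adjusted p of 0.0921. It was the gene most like Timp3 over the 18 sums (Pearson r = 0.86 of log2(CPM + 1)).

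Timp4 (ENSMUSG00000030317, chromosome 6, 115241892 to 115252205, minus strand) encodes the inhibitor with the narrowest known distribution, described mainly from heart and vessels. It had 13.4, 14.4 and 1.10 CPM in alveolar myofibroblast-like cells, 7.52, 2.47 and 4.47 CPM in alveolar fibroblast-like cells and 1.49, 0.674 and 5.44 CPM in adventitial fibroblast-like cells. It had 2.86, 0 and 13.3 CPM in pericyte-like cells and 28.3, 0.344 and 1.67 CPM in airway SMC-like cells, against 572.95, 500.5 and 366.3 CPM in vascular SMC-like cells. The 3 vascular SMC-like sums stood apart, and the lowest of them was 12.9 times the highest of the other 15. Pericyte-like cells were lower than vascular SMC-like cells by −6.71 ± 1.61 (log2 fold change, SE, adjusted p = 0.0384). That call was lost without male mouse 1 (log2 −6.51, adjusted p = 0.27) and without male mouse 2 (−5.52, 0.25), and it was kept without female mouse 1 with a larger log2 fold change of −8.98 (0.0354). The 11 pericyte-like cells of male mouse 2 held 0 Timp4 counts in a sum of 2178460, where a count of 0 allows up to 3 if reads are independent. Amplified reads of 11 cells are not, so the level there is bounded less tightly. In female mouse 1 a single pericyte-like cell held 48.1% of the Timp4 counts of the class. Airway SMC-like cells were not called lower than vascular SMC-like cells (−6.17 ± 1.57 as log2 fold change and SE, adjusted p = 0.0682), with airway sums below vascular ones in 3 of 3 mice. Alveolar fibroblast-like cells (−6.90 ± 1.58, SE, adjusted p = 0.018) and adventitial fibroblast-like cells (−7.72 ± 1.67, SE, adjusted p = 0.0133) were lower than vascular SMC-like cells on the log2 scale. These calls were lost without male mouse 1 (adjusted p = 0.136 and 0.131) and without male mouse 2 (0.112 and 0.0989).

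By cells, Timp4 had a count in 59.3%, 15% and 21.9% of the alveolar myofibroblast-like cells of the 3 mice, in 48.8%, 7.69% and 31.03% of airway SMC-like cells and in 86.8%, 81.2% and 72.9% of vascular SMC-like cells. A count was also found in 9 of 17, 0 of 11 and 26 of 61 pericyte-like cells. For alveolar fibroblast-like cells it was 31 of 63, 15 of 68 and 16 of 46, and for adventitial fibroblast-like cells 4 of 10, 3 of 16 and 8 of 34. Thinned shares are given for the first 3 of these classes only. After each cell was thinned to 50000 counts, the shares were 22.2%, 2.5% and 3.12% in alveolar myofibroblast-like cells and 17.1%, 7.69% and 6.90% in the airway SMC-like class, against 73.5%, 75.8% and 57.1% of vascular SMC-like cells. Leukocyte-like cells, which are not expected to make Timp4, had a count in 25.4% of cells at 7.13 CPM and a median depth of 242785 counts, against median depths of 209135 to 272726.5 counts in the vascular clusters. After the same thinning, the share was 12.96% in the leukocyte-like cells of male mouse 1, which gave 54 of the 59. The leukocyte-like share is a reference for male mouse 1 only, and no limit for background was tested. By level, the pericyte-like (2.86 CPM) and adventitial fibroblast-like (1.49 CPM) sums of that mouse lay below the 7.13 CPM of leukocyte-like cells. Its alveolar fibroblast-like (7.52 CPM), alveolar myofibroblast-like (13.4 CPM) and airway SMC-like (28.3 CPM) sums lay above it. Male mouse 2 and female mouse 1 gave 5 and 0 leukocyte-like cells, so shares in these mice have no such reference of their own. The thinned shares of alveolar myofibroblast-like and airway SMC-like cells lay above 12.96% in male mouse 1 and below it in the other mice, and these differences were not tested. Within vascular SMC-like cells the level was 682 CPM in cluster 0, 390 CPM in cluster 1, 364.5 CPM in cluster 9 and 322.4 CPM in cluster 13, all 3 mice together. Of the 70 vascular SMC-like cells of female mouse 1, 52 were in cluster 9, while most cells of both male mice were in clusters 0 and 1. Timp4 shares exons with Syn2, another synapsin gene on the opposite strand, which held 8306 counts against 79074 for Timp4. Syn2 averaged 13.9 ± 6.56 CPM in vascular SMC-like cells and was higher in fibroblast than in mural and muscle classes (log2 fold change 3.27 ± 0.79 (SE), adjusted p = 0.0166), a call that was lost without male mouse 2 (0.166) and without female mouse 1 (0.147).

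Levels of different TIMPs can be compared only per length, so CPM was divided by the kilobases of merged exons. The summed TIMP level was 621.1 ± 110.02 CPM per kb in alveolar myofibroblast-like cells, 888 ± 124.1 CPM per kb in alveolar fibroblast-like cells and 724 ± 65.2 CPM per kb in adventitial fibroblast-like cells (SD, n = 3 mice). It was 599.1 ± 137.1 CPM per kb in pericyte-like cells, 479.1 ± 112.7 CPM per kb in airway SMC-like cells and 428.5 ± 15.0004 CPM per kb in vascular SMC-like cells. Timp3 made up the largest share in every class, from 45.1 ± 4.42% in alveolar fibroblast-like cells to 77.3 ± 7.06% in pericyte-like cells. The makeup of the rest differed between classes. Timp1 took 29.9 ± 4.13% of the alveolar fibroblast-like sum and 3.76 ± 2.61% of the pericyte-like sum. Timp4 took at most 0.793% of the sum in any mouse of the other 5 classes and 19.1 ± 4.58% of the vascular SMC-like sum, 13.98% to 22.8% over the mice. Timp2 lay between 18.1% and 31.2% of the sum in the 6 class means. Per coding length in place of exon length, the mean share of Timp3 was 67.3% to 89.05% over the classes, that of Timp1 in alveolar fibroblast-like cells was 5.76% and that of Timp4 in vascular SMC-like cells was 16.9%.

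**Figure D2:**
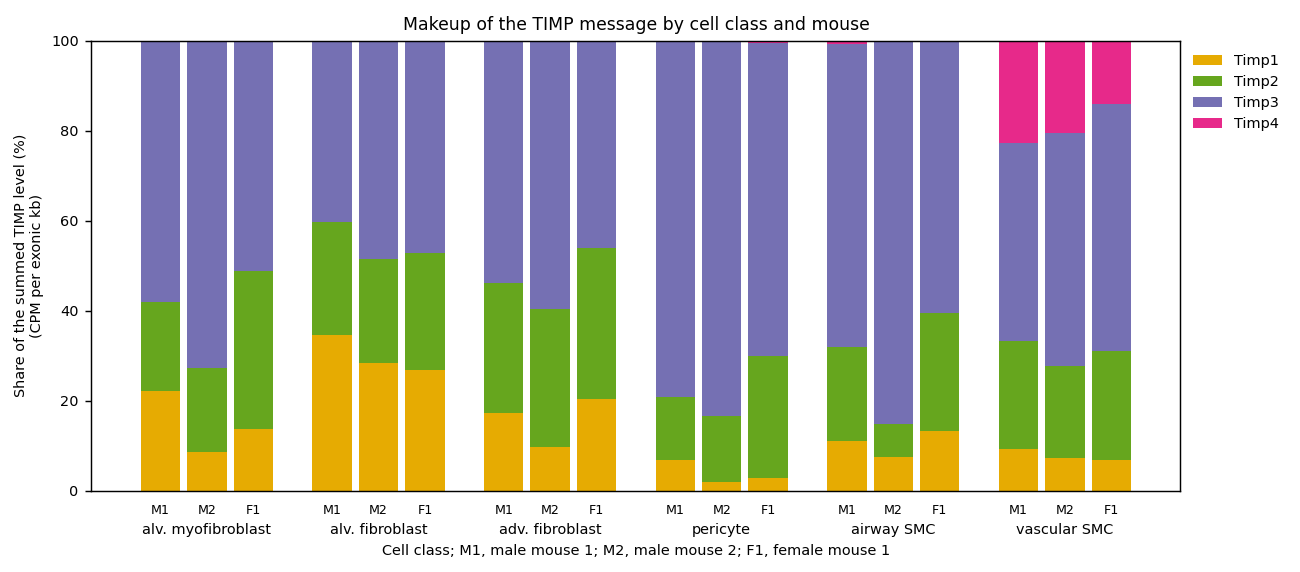
Share of each TIMP in the summed TIMP level (vertical axis, percent, CPM per exonic kb) for each cell class and mouse (horizontal axis, 1 stacked bar per mouse, 18 in all). Timp3 is the largest part of the class means, Timp1 is widest in alveolar fibroblast-like cells at 29.9% and Timp4 is visible only in vascular SMC-like cells, at 19.1%.

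Mmp2 (ENSMUSG00000031740, chromosome 8, 92827291 to 92853420, plus strand) encodes gelatinase A, which cuts denatured collagen and type IV collagen of basement membranes. Its levels spanned a wide range, between 4390 CPM in an alveolar fibroblast-like sum and 7.41 CPM in a pericyte-like sum. It had 450.9, 482.5 and 787 CPM in alveolar myofibroblast-like cells, 2842, 3184 and 4390.5 CPM in alveolar fibroblast-like cells and 4357, 3677 and 4288 CPM in adventitial fibroblast-like cells. It had 7.41, 113.2 and 135.4 CPM in pericyte-like cells, 674, 499.8 and 1532 CPM in airway SMC-like cells and 26.9, 37.8 and 244.7 CPM in vascular SMC-like cells. Alveolar and adventitial fibroblast-like sums lay above all others, airway SMC-like and alveolar myofibroblast-like sums overlapped, and pericyte-like and vascular SMC-like sums lay below all of them. The fibroblast classes were higher by 3.65 ± 0.43 on the log2 scale (SE), a 12.6-fold difference (adjusted p = 5.02e-05). The call held in all 12 alternatives, and the log2 difference was 3.21, 3.78 and 4.19 with male mouse 1, male mouse 2 or female mouse 1 left out.

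Among smooth muscle cells, airway SMC-like cells had more Mmp2 than vascular SMC-like cells, by 3.47 ± 0.73 on the log2 scale (SE, adjusted p = 0.0237). This was the only called gene of the 10 in that comparison, in which 1.72% of all genes tested were called (0.827% as higher). The call was lost when the first male mouse (log2 3.02, adjusted p = 0.0949), the second (3.48, 0.258) or the female mouse (4.41, 0.117) was left out, and without the mouse as a block (0.0972). The airway sums were higher in 3 of 3 mice. Alveolar myofibroblast-like cells were higher than vascular SMC-like cells by 2.92 ± 0.72 (SE, adjusted p = 0.0383) and lower than adventitial fibroblast-like cells by −2.98 ± 0.71 (SE, adjusted p = 0.0431) in log2 fold change, where 3.24% and 2.01% of all genes were called. Both calls were lost when any 1 mouse was left out (adjusted p of 0.0854 to 0.288 and of 0.0977 to 0.251). Against alveolar fibroblast-like cells they were not called lower (−2.63 ± 0.70, SE, adjusted p = 0.0727), although the sums did not overlap.

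Mmp14 (ENSMUSG00000000957, chromosome 14, 54431612 to 54445364, plus strand) encodes the membrane-anchored protease that activates the Mmp2 proenzyme. It had 344.005, 175.7 and 197.6 CPM in alveolar myofibroblast-like cells, 548.1, 362.5 and 296.8 CPM in alveolar fibroblast-like cells and 742, 276.7 and 665 CPM in adventitial fibroblast-like cells. It had 368.7, 272.7 and 324.95 CPM in pericyte-like cells, 184.6, 87.8 and 187.7 CPM in airway SMC-like cells and 147.4, 99.1 and 207.3 CPM in vascular SMC-like cells. Adventitial and alveolar fibroblast-like sums lay above those of both muscle classes and overlapped those of pericyte-like cells. The fibroblast classes were higher by 0.94 ± 0.18 on the log2 scale (SE), a 1.92-fold difference (adjusted p = 0.00384), and the call was lost without male mouse 1 (log2 0.81, adjusted p = 0.155). Pericyte-like cells had higher sums than vascular SMC-like cells in 3 of 3 mice, but this was not called (log2 fold change 1.12 ± 0.32 (SE), adjusted p = 0.0772). For Mmp2 the same pair of classes gave a log2 fold change of −0.04 ± 0.68 (SE, adjusted p = 0.987).

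Per exonic kb, Mmp2 and Mmp14 together reached 210.2 ± 49.7 CPM in alveolar myofibroblast-like, 1098 ± 223.4 CPM in alveolar fibroblast-like and 1313 ± 152.8 CPM in adventitial fibroblast-like cells (SD, n = 3 mice). They reached 79.4 ± 15.3 CPM in pericyte-like, 293.3 ± 170.3 CPM in airway SMC-like and 55.98 ± 44.6 CPM in vascular SMC-like cells. The ratio of the TIMP sum to this MMP sum was 3.13 ± 1.14 in alveolar myofibroblast-like, 0.843 ± 0.251 in alveolar fibroblast-like and 0.557 ± 0.0872 in adventitial fibroblast-like cells. It was 7.97 ± 3.40 in pericyte-like, 1.98 ± 0.938 in airway SMC-like and 10.7 ± 5.74 in vascular SMC-like cells. The mean ratio of alveolar myofibroblast-like cells thus stood above that of airway SMC-like cells, and the classes did not split into fibroblasts on one side and mural and muscle cells on the other. These are ratios of message per exonic length and say nothing of protein or enzyme activity. Per coding length they were 15.1 in alveolar myofibroblast-like, 3.55 in alveolar fibroblast-like and 2.73 in adventitial fibroblast-like cells, and 32.9 in pericyte-like, 11.2 in airway SMC-like and 40.1 in vascular SMC-like cells.

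Adamts1 (ENSMUSG00000022893, chromosome 16, 85793827 to 85803113, minus strand) encodes a secreted protease that cuts the proteoglycans aggrecan and versican. It was not called between fibroblast and mural or muscle classes (log2 fold change −0.45 ± 0.21 (SE), adjusted p = 0.259). It had 1090.4, 1049 and 1192 CPM in alveolar myofibroblast-like cells, 363.9, 466.8 and 670.2 CPM in alveolar fibroblast-like cells and 192.9, 197.8 and 236.7 CPM in adventitial fibroblast-like cells. It had 323.1, 76.5 and 239.1 CPM in pericyte-like cells, 1859, 1142 and 2169 CPM in airway SMC-like cells and 798, 1003 and 718 CPM in vascular SMC-like cells. The 9 sums of the alveolar myofibroblast-like, airway SMC-like and vascular SMC-like classes all lay above the 9 others. Pericyte-like cells were lower than vascular SMC-like cells by −2.08 ± 0.39 (log2 fold change, SE, adjusted p = 0.00995). With 1 mouse left out this log2 fold change was −2.63 (male mouse 1, adjusted p = 0.0761), −1.43 (male mouse 2, 0.0851) or −2.21 (female mouse 1, 0.102), and the call was lost each time. Pericyte-like cells were also lower than airway SMC-like cells (−3.04 ± 0.40, SE, adjusted p = 0.000563), where 4.66% of all genes were called. Adventitial fibroblast-like cells were lower than airway SMC-like cells (−3.01 ± 0.40, SE, adjusted p = 0.00038) and vascular SMC-like cells (−2.04 ± 0.38, SE, adjusted p = 0.00492), where 4.09% and 4.98% of all genes were called. The calls against airway SMC-like cells held without each mouse in turn, and that of adventitial fibroblast-like against vascular SMC-like cells was lost without male mouse 1 (adjusted p = 0.0906) and without female mouse 1 (0.108). Between airway and vascular SMC-like cells the difference of 0.96 ± 0.37 (SE, adjusted p = 0.316) was not called.

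Dissociation of tissue is known to induce immediate-early and heat-shock genes, so the relation of each gene to 28 such genes was measured. Their summed level was 9749 ± 5210 CPM in pericyte-like cells and 34271 ± 4994 CPM in airway SMC-like cells (SD, n = 3 mice), while the mean of Adamts1 was 212.9 ± 125.4 CPM in pericyte-like cells and 1723 ± 526.9 CPM in airway SMC-like cells. The other 4 class means of the stress sum lay between 19015 and 21729 CPM, while Adamts1 varied widely among these classes. It had 192.9 to 236.7 CPM in adventitial and 363.9 to 670.2 CPM in alveolar fibroblast-like cells. It had 718 to 1003 CPM in vascular SMC-like and 1049 to 1192 CPM in alveolar myofibroblast-like cells. Over the cells of 1 class and 1 mouse, Spearman's rho between Adamts1 and this sum was positive in 18 of 18 groups, with a median of 0.294 and a range from 0.146 to 0.764. The cells of a group share a mouse and, except in male mouse 1 with its 2 plates, a library plate, and the depth per cell enters both measures. Among the other 9 genes, the rho was positive in 12 of 18 groups for Mmp2, 11 of 18 for Adamts2, 10 of 18 for Timp3 and Mmp14 and 5 of 18 for Timp2. It was positive in 12 of 13 groups for Adamts17, 8 of 14 for Timp4, 6 of 16 for Timp1 and 4 of 13 for Adamts5. The part of the stress genes in the class differences of Adamts1 was not tested.

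**Figure D3:**
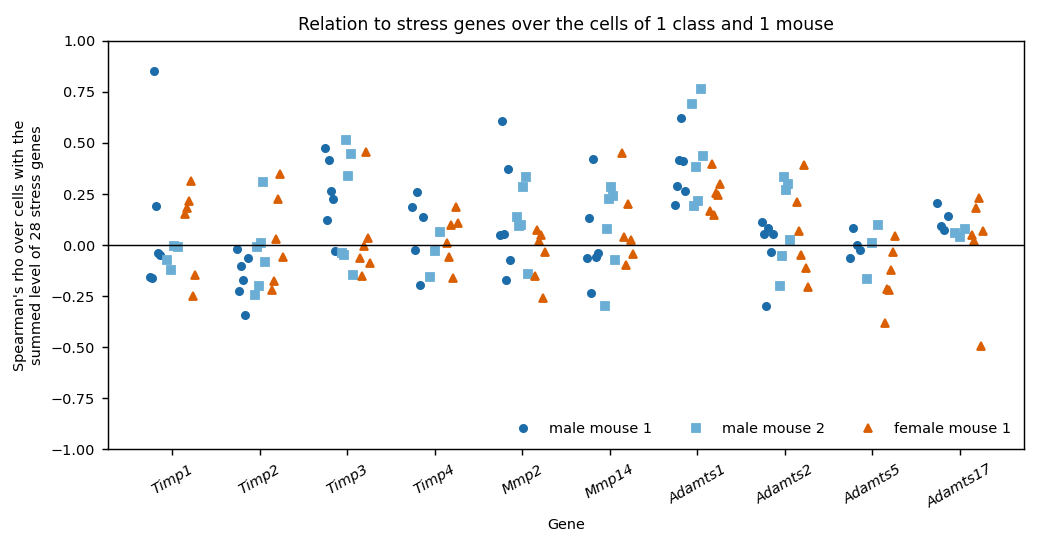
Spearman's rho over cells between each gene and the summed CPM of 28 stress genes (vertical axis) for the 10 genes (horizontal axis), 1 point per class and mouse. All 18 points of Adamts1 lie above 0, between 0.146 and 0.764, while the points of the other genes lie on both sides of 0.

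Adamts2 (ENSMUSG00000036545, chromosome 11, 50602084 to 50807573, plus strand) encodes the protease that removes the amino-terminal propeptide from fibrillar procollagens. It had the lowest adjusted p of the 10 genes among classes, and 10 of the 15 pairs of classes were called for it, against 9 for Mmp2, 7 for Adamts1 and 5 or fewer for the rest. Over the 15 pairs, 0.224% to 5.37% of all genes tested were called. The share was 4.81% for adventitial fibroblast-like against pericyte-like, 4.12% for alveolar fibroblast-like against airway SMC-like, 3.69% for alveolar myofibroblast-like against pericyte-like and 0.908% for alveolar myofibroblast-like against airway SMC-like cells. Of the 48 calls of the 10 genes between pairs of classes, 14 held without each mouse in turn, and 6 of these were of Adamts2. It had 174.6, 186.2 and 523.99 CPM in alveolar myofibroblast-like cells, 519.5, 457.04 and 1293 CPM in alveolar fibroblast-like cells and 909.8, 682 and 2221 CPM in adventitial fibroblast-like cells. It had 174.3, 139.6 and 655 CPM in pericyte-like cells, 48.4, 73.7 and 237.2 CPM in airway SMC-like cells and 117.7, 104.9 and 388.1 CPM in vascular SMC-like cells. Adventitial and then alveolar fibroblast-like cells were highest and airway SMC-like cells lowest in each of the 3 mice, and female mouse 1 stood above both male mice in 6 of 6 classes. Its sums were between 2.44 and 3.76 times the higher of the male sums, with a median of 3.02. The fibroblast classes were higher by 1.86 ± 0.14 on the log2 scale (SE), a 3.62-fold difference with the mouse as a block (adjusted p = 9.21e-07), and the call held in all 12 alternatives.

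Adamts2 was the only one of the 10 genes called between alveolar myofibroblast-like and alveolar fibroblast-like cells, where 2.18% of all genes were called (1.4% as lower). It was lower in myofibroblast-like cells by −1.39 ± 0.24 (log2 fold change, SE, adjusted p = 0.00501), in 3 of 3 mice. That call was lost without the mouse as a block (adjusted p = 0.59) and without male mouse 1 (log2 −1.29, 0.199), male mouse 2 (−1.39, 0.0741) or female mouse 1 (−1.37, 0.213). Alveolar fibroblast-like cells exceeded pericyte-like cells, the next class in the order, by 1.42 ± 0.24 on the log2 scale (SE, adjusted p = 0.0023), where 4.62% of all genes were called, and that call was lost when any 1 mouse was left out (adjusted p of 0.0577 to 0.0825). A single cell held 96.3% of the Adamts2 counts of the 13 airway SMC-like cells of male mouse 2.

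Adamts5 (ENSMUSG00000022894, chromosome 16, 85856173 to 85901828, minus strand) encodes an aggrecanase and versican-cutting enzyme, and its gene lies close to Adamts1. It had 202.004, 133.98 and 11.3 CPM in alveolar myofibroblast-like cells, 11.2, 21.4 and 60.5 CPM in alveolar fibroblast-like cells and 49.04, 19.1 and 113.5 CPM in adventitial fibroblast-like cells. It had 0.505, 0.864 and 3.67 CPM in pericyte-like cells, 120.8, 36.5 and 36.8 CPM in airway SMC-like cells and 108.3, 133.1 and 119.1 CPM in vascular SMC-like cells. The pericyte-like sums lay below all 15 others, and those of the other 5 classes overlapped in part. Pericyte-like cells were lower than vascular SMC-like cells by −6.33 ± 1.23 (log2 fold change, SE, adjusted p = 0.0117). This call was lost without male mouse 1 (−5.87, adjusted p = 0.189) and without male mouse 2 (−5.79, 0.247). Together with Timp3, Timp4 and Adamts1, this made 4 of the 10 genes called between pericyte-like and vascular SMC-like cells, 1 higher and 3 lower. Of all genes tested, 2.87% were called there, 1.36% as higher and 1.51% as lower. In that comparison the median log2 fold change of all genes was −0.35 with TMM factors and −0.13 with DESeq2 size factors, and the 4 calls lie beyond either median. A single cell held over 50% of the Adamts5 counts in 7 of 18 sums.

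Adamts17 (ENSMUSG00000058145, chromosome 7, 66839735 to 67153171, plus strand) encodes a protease whose human gene is known from a Weill-Marchesani-like syndrome of short stature and eye defects. It was the gene with the fewest cells, 22.1% of all. It had 92.3, 88.8 and 252.5 CPM in alveolar myofibroblast-like cells, 71.3, 62.2 and 266.9 CPM in alveolar fibroblast-like cells and 0, 0.674 and 49.2 CPM in adventitial fibroblast-like cells. It had 0, 37.2 and 46.2 CPM in pericyte-like cells, 8.37, 0 and 25.5 CPM in airway SMC-like cells and 6.92, 2.51 and 30.3 CPM in vascular SMC-like cells. Both alveolar classes stood above the 12 other sums, and female mouse 1 stood above both male mice in 6 of 6 classes. No pair of classes was called, and the fibroblast contrast gave a log2 fold change of 1.81 ± 0.89 (SE, adjusted p = 0.276).

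**Figure D4:**
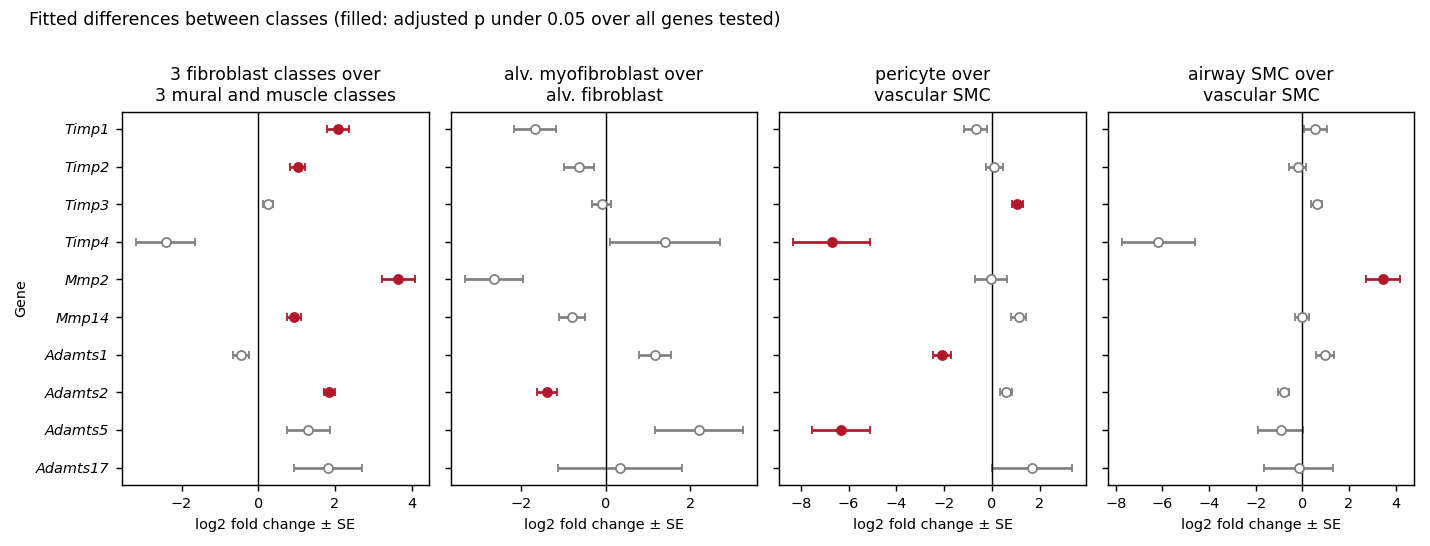
Fitted log2 fold change ± SE (horizontal axis) of each gene (vertical axis) in 4 comparisons of classes, with filled points where the adjusted p was under 0.05. Timp1, Timp2, Mmp2, Mmp14 and Adamts2 are filled in the comparison of fibroblast with mural and muscle classes, Mmp2 alone for airway against vascular, 4 genes for pericyte against vascular and Adamts2 alone for myofibroblast against alveolar fibroblast.

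The order of class means was set against the spread for each gene. Of the 50 pairs of neighbouring classes in these orders, 3 were called, namely Mmp2 and Adamts2 as given above and Adamts5 between alveolar fibroblast-like and pericyte-like cells (log2 fold change 4.18 ± 1.11 (SE), adjusted p = 0.0454). Without male mouse 1 or male mouse 2, 0 of the 50 pairs were called, and without female mouse 1 there was 1. The other 47 pairs were not called, which does not show that their levels were alike. In 10 of these 47 the fitted difference lay over 2 SE from 0, among them Timp4 between vascular and airway SMC-like cells as given above, Mmp2 between alveolar fibroblast-like and airway SMC-like cells (log2 fold change 2.08 ± 0.68, SE, adjusted p = 0.116), Adamts1 between alveolar fibroblast-like and pericyte-like cells (1.29 ± 0.38, SE, adjusted p = 0.074) and Timp3 between airway and vascular SMC-like cells (0.61 ± 0.22, SE, adjusted p = 0.255).

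Pericyte-like cells were made of 2 clusters that differed in several of the genes. Cluster 11 (46 cells, led by Col8a1 and Cybrd1) had 4794 CPM of Timp3, 723 CPM of Adamts2, 393.9 CPM of Adamts1 and 51.05 CPM of Adamts17. Cluster 12 (43 cells, led by Clstn2 and Adcy8) had 1547 CPM of Timp3, 40.4 CPM of Adamts2, 18.9 CPM of Adamts1 and 1.52 CPM of Adamts17. Mmp14 was at 315.2 CPM in cluster 11 and 358.3 CPM in cluster 12, and Adamts5 was at 2.74 and 1.90 CPM. Of the pericyte-like cells, cluster 11 held 12 of 17 in male mouse 1, 3 of 11 in male mouse 2 and 31 of 61 in female mouse 1. The stress genes summed to 14712, 4324 and 10210 CPM in the pericyte-like cells of these mice. The clusters were not tested against each other, and the contrasts of pericyte-like cells carry this mixture.

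For each gene, the 3 genes most like it over the 18 sums were taken by Pearson's r of log2(CPM + 1), as a description over sums that share libraries and mice. For Timp1 these were Tnfsf13b (0.91), Cnpy2 (0.88) and Fmo1 (0.88), and for Timp2 they were H2-K1, Gm44170 and Ankrd13a (0.89 to 0.90). For Timp3 they were Syn3, Pros1 (0.85) and Cd47 (0.78). For Timp4 they were Susd5 (0.92), Stac and Mylk2 (both 0.90). Mmp2 was nearest to Igfbp6 (0.93), Cygb and Zfp503 (both 0.92), and Mmp14 to Tmsb10 (0.87), Pcolce and Snx22 (both 0.85). Adamts2 was nearest to Col1a2, Heg1 and Fbn1 (all 0.93). Adamts1 was nearest to Acss1, Pde1a (both 0.90) and Atp6v0e2 (0.89), Adamts5 to Acot11, Ahnak2 (both 0.87) and Ldhb (0.84), and Adamts17 to genes that included Ddx49 and Tln2 (both 0.85). Among the 10 genes themselves the highest r were 0.75 for Timp2 with Adamts2 and with Mmp14, and the lowest were −0.61 for Timp3 with Timp4 and for Mmp14 with Adamts1. Differences between mice were not taken out before r was computed, so a shift of 1 mouse across classes enters r. Adamts2 and Adamts17 had such a shift, with female mouse 1 above both male mice in 6 of 6 classes.

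The rest of the protease system was read from 7 lists. Beside their counts stand the shares over all genes tested, which were 11.4% called among classes and, in the fibroblast contrast, 5.06% called higher and 3.36% called lower. Of 73 such calls of genes named from these lists, the stress genes or the synapsin genes, 34 held without each mouse in turn and 15 were lost without each of them, counting A2m and Mmp28 as lost where they were not tested without female mouse 1. Of 21 other MMPs, 11 were tested and 3 differed among classes (11.4% over all genes), and in the fibroblast contrast 2 were higher and 1 lower (5.06% and 3.36%). Mmp3, stromelysin 1, had 703 ± 74.6 CPM in alveolar fibroblast-like cells and 4.96 ± 5.71 CPM in pericyte-like cells (SD, n = 3 mice), with a log2 fold change of 5.59 ± 0.68 (SE, adjusted p = 7.51e-05) between fibroblast and mural classes. Mmp23 and Mmp28 were also called among classes. Of 15 other ADAMTS genes, 11 were tested and 3 differed (Adamts10, Adamts19 and Adamts7, against 11.4% over all genes), with 1 higher and 0 lower in fibroblasts (5.06% and 3.36%). The calls of Adamts19 (adjusted p = 0.0132) and Adamts7 (0.0488) among classes were lost when any 1 mouse was left out. Adamts10, known in human as a Weill-Marchesani gene, had 584.4 ± 201.5 CPM in pericyte-like cells and 89.1 ± 29.1 CPM in airway SMC-like cells, and it was lower in airway than in vascular SMC-like cells (−1.72 ± 0.27 as log2 fold change and SE, adjusted p = 0.00345), a call that was lost when any 1 mouse was left out (0.074 to 0.318). Of 5 ADAMTS-like genes tested, which have no protease domain, 3 differed (Adamtsl2, Adamtsl4 and Adamtsl3, against 11.4%). In fibroblasts 1 was higher and 1 lower (5.06% and 3.36%), namely Adamtsl2 (4.02 ± 0.60, SE, adjusted p = 0.000508) and Adamtsl4 (−0.99 ± 0.26, SE, adjusted p = 0.0268). Of 10 membrane-bound ADAM genes tested, 3 differed (Adam33, Adam23 and Adam9, against 11.4%), with 1 higher and 1 lower in fibroblasts (5.06% and 3.36%). Adam23 was the higher one (6.57 ± 1.10, SE, adjusted p = 0.0012). Adam33 had 3.44 ± 4.13 CPM in alveolar fibroblast-like cells and 424.2 ± 179.1 CPM in vascular SMC-like cells, and the gene was lower in fibroblast than in mural and muscle classes (−3.14 ± 0.32, SE, adjusted p = 1.63e-05) and higher in myofibroblast-like than in alveolar fibroblast-like cells (5.63 ± 0.63, SE, adjusted p = 0.000159).

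Of 14 genes listed as other inhibitors or their relatives, 11 were tested and 9 differed among classes (11.4% over all genes). In the fibroblast contrast 4 of them were higher and 0 lower (5.06% and 3.36%), namely Serping1, Serpinf1, A2m and Serpinh1. A2m varied widely in its highest class, adventitial fibroblast-like cells, at 75.5 ± 103.5 CPM (SD, n = 3 mice) and from 0.225 to 193.5 CPM. The median log2 fold change of the list was 1.38, against −0.01 over all genes tested. Serping1, the C1 inhibitor, was higher by 1.57 ± 0.12 (SE, adjusted p = 9.5e-07), and Serpinf1 by 4.87 ± 0.56 (SE, adjusted p = 4.15e-05). Reck, a membrane-anchored inhibitor of MMPs, was highest in pericyte-like cells at 528.7 ± 283.2 CPM (SD, n = 3 mice), above vascular SMC-like cells by 1.94 ± 0.49 on the log2 scale (SE, adjusted p = 0.0493), a call that was lost when any 1 mouse was left out (0.186 to 0.248). Serpine2, Spock2, A2m, Serpinh1 and Cst3 of this list were also called among classes. Whether each listed gene inhibits a protease was not examined. Of 18 other matrix proteases and processing enzymes tested, 8 were higher and 1 lower in fibroblasts (5.06% and 3.36% over all genes, median log2 fold change of the list 1.32), and 9 were called among classes (11.4%). Htra3 was higher in fibroblast classes (3.05 ± 0.30, SE, adjusted p = 1.24e-05) and lower in pericyte-like than in vascular SMC-like cells (−7.06 ± 0.64, SE, adjusted p = 3.77e-05). Prss23, a serine protease, had 7.10 ± 3.77 CPM in airway SMC-like cells and 1544 ± 315.9 CPM in vascular SMC-like cells, a log2 fold change of −7.83 ± 0.94 (SE, adjusted p = 0.000532). Plat, tissue plasminogen activator, was higher in pericyte-like than in vascular SMC-like cells (3.93 ± 0.52, SE, adjusted p = 0.000928). Ctsl, Pappa2, Ctsk, Ctsb and Loxl1 were named by the same rule.

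Of 13 substrates and cofactors tested, 12 were called among classes (11.4% over all genes), with 9 higher and 1 lower in fibroblasts (5.06% and 3.36%) and a median log2 fold change of 1.43. Col1a1, Col1a2 and Col3a1, the fibrillar collagens that Adamts2 trims, were higher in fibroblasts by 1.83 ± 0.21, 1.36 ± 0.12 and 1.57 ± 0.13 (SE), with adjusted p of 5.01e-05, 3.6e-06 and 2.65e-06. Pcolce, an enhancer of procollagen processing, was higher by 1.83 ± 0.18 (SE, adjusted p = 1.26e-05) and Pcolce2 by 2.31 ± 0.18 (SE, adjusted p = 1.13e-06). Col4a1, a basement membrane collagen, had 1762 ± 856 CPM in pericyte-like cells (SD, n = 3 mice) and was higher there than in vascular SMC-like cells (2.29 ± 0.27, SE, adjusted p = 0.000412), as was Col4a2 (2.62 ± 0.37, SE, adjusted p = 0.00178, and 0.0527 without male mouse 1). Fbn1, fibrillin 1, was lower in myofibroblast-like than in alveolar fibroblast-like cells (−2.18 ± 0.33, SE, adjusted p = 0.00203, and 0.142 without male mouse 1). Of the 28 stress genes, 10 differed among classes (11.4% over all genes), with 3 higher and 0 lower in fibroblasts (5.06% and 3.36%), 3 higher in airway than in vascular SMC-like cells (0.827%) and 5 lower in pericyte-like than in vascular SMC-like cells (1.51%). Nr4a2, Junb, Socs3, Ier2, Ier3, Hspb1, Zfp36 and Btg2 were named among them, and Nr4a2 had 581.7 ± 177.3 CPM in airway SMC-like cells (SD, n = 3 mice).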

How the data were processed

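The authors deposited 1 table of unnormalized counts, in whole numbers, of reads for each gene in each of 1376 cells of 3 mice. Tools listed in the submitters' processing notes are featureCounts, Subread, Bowtie2, Bowtie and bcl2fastq, and the build is listed there as mm10 and GRCm38. Neither versions nor the treatment of strand are stated in those sources. The table's 46517 Ensembl identifiers took symbols and coordinates from a GRCm38 annotation, and the 512 without a symbol held 0.184% of counts. No cell and no column was left out, and no doublets were called or removed. The reads carry no molecular identifiers, so counts per cell (50835 to 1074103) are of amplified reads and not of molecules. Depth per cell bears on counting error, on the share of cells with a count and on a cell's weight in a sum.

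The genes, gene lists, markers and tests were chosen with earlier results of these data known. Genes were split at random (seed 1), cells were clustered on 1000 variable genes of one side (10000 counts per cell, ln(1 + x), 30 principal components, 15 neighbours, Leiden resolution 1, leidenalg 0.10.2, scikit-learn 1.9.0), and genes of the other side were tested. No listed gene was in the clustering used for it. The measure of variability, the scaling, the minimum of 50 cells with a gene and the naming score were set after clusters had been seen, and they kept 6 classes with at least 10 cells in each mouse. Both clusterings gave the same name to 94.1% of the 1070 cells named in both. The names were less stable in female mouse 1. There, vascular SMC-like cells numbered 70 in the clustering used for the 10 genes and 35 in the other. Pericyte-like cells of that mouse numbered 61 and 99.

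Counts were summed per class and mouse (18 sums) and fitted in 1 model with edgeR 4.0.16 (R 4.3.3, glmQLFit and glmQLFTest, TMM factors, filterByExpr, two-sided, mouse as a block), and p-values were adjusted by Benjamini-Hochberg over 16079 genes tested. The 3 mice are separate animals that each gave cells to every class, which is where the block comes from. The fit was tested on simulated data. SE was taken as the size of the log2 fold change over the root of F. Alternatives were DESeq2 1.42.0 and its size factors, no filter, no block, each mouse left out, other clusterings and gene splits, a stricter cell filter, cells scaled to the same total and fits of the compared classes alone. Thinning drew 50000 counts per cell. Named genes were the 10 chosen ones, up to 8 of each list called among classes in order of adjusted p, and the 3 most correlated genes, of which 1 is not reported here. Promoter sequences are from RefSeq on GRCm38.p6.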

Additional observations from a re-analysis of the deposited data

How the results depend on the processing

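No called value of the 10 genes changed sign under any alternative that was run. Counts are of the 10 genes, and percentages are of all genes with an adjusted p in that setting (16079 in the model described above and 29680 in DESeq2, which was run without the filter on low counts). Among all classes 8 were called (11.4% of all genes), 4 to 7 (3.42% to 4.83%) with a mouse left out, 3490 genes (11.8%) with DESeq2, against 1839 in edgeR, and 17.5% with cells scaled to the same total. In the fibroblast contrast 5 were called (8.43%), 4 to 5 (3.7% to 4.56%) with a mouse left out, 8 with the stricter cell filter, and 5.09% of all genes at Leiden resolution 2 and 2347 genes (7.91%, against 1355 in edgeR) with DESeq2.

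Between airway and vascular SMC-like cells 1 was called (1.72%). Leaving out a mouse gave 0 to 0 (0.207% to 0.621%, with 2 to 5 of the 10 at an unadjusted p under 0.05 in edgeR), resolution 2 gave 0 (1.02%, 5 unadjusted), another gene split 3, DESeq2 2 (935 genes, 3.15%) and scaled cells 3 (3.8%). Between pericyte-like and vascular SMC-like cells 4 were called (2.87%), 0 to 3 (0.346% to 1.43%) with a mouse left out (5 and 6 unadjusted where 0), 2 with 1 clustering and 1 (1.04%) with only these classes. There 4.43% of all genes were called with another split, 1501 genes (5.06%) with DESeq2 and 7.73% with scaled cells. Between alveolar myofibroblast-like and alveolar fibroblast-like cells 1 was called (2.18%), 0 to 0 (0.438% to 0.871%) with a mouse left out (3 to 6 unadjusted), 3 (1099 genes, 3.7%) with DESeq2, 2 (4.05%) with scaled cells, and 2 each with 1 clustering, another split, the stricter filter and only these classes. Of the neighbouring pairs 3 were called, and 0 to 1 with a mouse left out. Leaving out a mouse leaves fewer sums, and the cause of the other changes was not tested.

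Without the mouse as a replicate block, 0 of the 10 were called for airway against vascular (1.07% of all genes, 4 of the 10 unadjusted) and 0 for myofibroblast against alveolar fibroblast (1.42%, 3 unadjusted). For pericyte against vascular 1.63% of all genes were called without the block, and no other count of calls moved by over 1.5 times. The myofibroblast comparison at resolution 2 and the pericyte comparison under the stricter filter could not be fitted, as a mouse had under 10 cells.

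With 10 to 17 cells in 5 of the 18 sums, low genes such as Adamts5, Adamts17 and Timp4 outside the vascular class rest on few cells. Under DESeq2 size factors the median log2 fold change of all genes was −0.08 for airway over vascular SMC-like cells, and with TMM factors it was −0.28.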

Other observations

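Cells outside the 6 classes also held several of these genes, and they are given here as values of all 3 mice together. Cluster 5 (97 cells, 87 of them from male mouse 1, unnamed, median 133824 counts per cell) had 491.8 CPM of Timp4, 230.98 CPM of Adamts5 and 115.1 CPM of Timp1. Cluster 3 (9.01% of all cells, unnamed, with Cyp1b1 and Osr2 among its leading genes) had 3935 CPM of Timp3, 668 CPM of Mmp2, 434.96 CPM of Adamts2 and 38.9 CPM of Timp4. Endothelial-like cells, 65 of 66 from female mouse 1, had 491.1 CPM of Timp3, 280 CPM of Timp2, 158.02 CPM of Mmp2 and 102.4 CPM of Adamts1. Leukocyte-like cells, 54 of 59 from male mouse 1, had 404.9 CPM of Timp2, 89.7 CPM of Timp3 and 67.8 CPM of Mmp14.

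The 2 plates of male mouse 1 can be set side by side within 1 animal. In vascular SMC-like cells, plates 046s (43.55% of that mouse's cells of the class) and 045s (56.45%) had 672 and 491.7 CPM of Timp4, 1554 and 1529 CPM of Timp3 and 843 and 773 CPM of Adamts1. Mmp2 differed more, at 38.2 and 16.8 CPM, a ratio of 2.27, and Adamts17 had 3.15 and 10.7 CPM. Classes with fewer cells held larger differences, given here for 046s and then 045s. Adamts5 had 370.5 and 1.08 CPM in alveolar myofibroblast-like cells (14 and 13 cells), and a single cell held 52.7% of its counts in that mouse and class. In adventitial fibroblast-like cells (5 and 5 cells) Timp1 had 227.6 and 14.5 CPM, Adamts1 had 433.1 and 30.6 CPM and Adamts5 had 1.47 and 84.5 CPM. Adamts1 had 422.5 and 68.5 CPM in pericyte-like cells (12 and 5 cells), and Timp4 had 2.49 and 61.6 CPM in airway SMC-like cells (21 and 20 cells).

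Female mouse 1 stood above both male mice in 6 of 6 classes for Adamts2 and Adamts17, in 5 of 6 for Mmp2, and in 4 of 6 for Timp2 and Adamts1, while for Timp3 it stood below both in 4 of 6. Sex, plate and mouse cannot be told apart here.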
